A study of Homo sapiens with 4 samples.

Results

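The interleukins are secreted proteins by which leukocytes instruct one another, and each acts through a receptor of one or more chains on the target cell. Most receptors of the common gamma chain, common beta chain, IL-6, IL-12 and IL-10 families signal through JAK kinases and STAT factors, whereas those of the IL-1 and IL-17 families use adaptors and kinases such as MYD88, IRAK and TRAF6, and IL-8 acts through G protein coupled receptors. Several chains are shared, so that the cytokines to which a cell can respond depend on which chains it makes together. Here these genes were followed on whole genome arrays of NB4, a human acute promyelocytic leukemia (APL) cell line that carries the PML-RARA fusion, in its naive form and in a subline resistant to arsenic trioxide (ATO). In resistant cells the cytokine IL18 (at least 7.63-fold), the IL-23 subunit IL23A (5.80-fold), the IL-17 receptor chain IL17RC (5.88-fold) and the IL-8 receptor CXCR2 (6.66-fold on its first probe) were higher, with 2 flasks of each line. The IL-15 receptor chains IL15RA (14.2-fold) and IL2RB (7.33-fold) were lower. Of the T cell genes, CD3D and CD3G were lower, while CD2 and CD3E did not pass the test. Nor did the partner chains IL2RG, IL4R and IL17RA. These folds depended on how background was handled: with normexp background correction, which adds an offset of 50 to every signal, they were 2.10-fold for IL18, 4.21-fold for IL23A, 2.77-fold for IL17RC and 2.54-fold for CXCR2, and the falls were 2.76-fold for IL15RA and 1.58-fold for IL2RB, none of them called. Normexp was also run after the bright local backgrounds of 4 spots on a naive and 26 on a resistant array were reset. This setting was chosen after the data were seen. With it these 6 probes were called, at 2.41-, 4.96-, 3.37- and 3.09-fold higher and 4.50- and 2.26-fold lower in the same order. The second CXCR2 probe (1.45-fold) was not, nor were the probes of IL1RN, IL22RA2, IL24, IL5RA and IL8RBP that were called without normexp.

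Members were all probes whose gene name began with IL followed by a number, except IL3RA, and there were 122 such probes for 91 genes among the 41000 probes and 30811 gene names of the array. They comprised 52 probes for 46 ligands, 66 probes for 42 receptor chains and 4 probes for 3 genes that are neither (IL18BP, IL4I1 and the pseudogene IL8RBP). Total RNA of 2 flasks of naive NB4 and 2 flasks of the resistant line was labelled as cRNA, and each flask was hybridised to 1 of 4 one-colour arrays. The resistant cells are a single clone, given as NB4-VM-AsR1 in the sample labels and as NB4-EV-AsR1 in the methods of the study, and were kept without ATO for one week before harvest; both lines grew in RPMI with 10% serum. All 4 arrays lay on 1 slide, the naive arrays in its first positions, so that position and line cannot be told apart. With 1 clone a difference cannot be assigned to resistance rather than to the clone.

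Values are log2 of the scanner's processed signal minus the 75th percentile of the array, so that 0 is that percentile; levels of different probes are not comparable. A probe was counted as detected where the scanner software set it well above background, which it did for 28055 and 28185 probes on the naive arrays and for 27922 and 28244 on the resistant arrays. Among members it did so for 67, 68, 66 and 69 probes in the same order.

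The label of the cells was checked first. Of the 7 probes for the promyelocyte genes MPO, ELANE, AZU1, PRTN3, CTSG and CD33, 7 and 6 were above background in the naive flasks and 7 in each resistant flask. The probe of MPO, the granule peroxidase, was saturated on all 4 arrays and that of CTSG on 2, so that no difference between the lines was read from them or from a sum that holds them. The elastase gene ELANE, not above background in naive flask 2, and the granule gene AZU1 were called higher in the resistant line (2.49 and 1.17, limma adjusted p = 0.0169 and 0.0472), while both CD33 probes gave -0.29 and -0.28 without a call. PRTN3 was at 3.16 and 0.80 in naive and 4.43 and 4.32 in resistant flasks. It was not called (2.4, limma adjusted p = 0.179), and its naive flasks lay far apart. Of 5 probes for T cell genes, those of CD3D and CD3G fell: CD3D was at 0.70 and 1.16 in naive flasks and was not well above background in either resistant flask, at least 169-fold lower (limma, adjusted p = 0.000755), and CD3G was at least 2.19-fold lower (adjusted p = 0.011). The probe signals of the T cell list summed to 1.76 and 2.40 times the 75th percentile against 0.137 and 0.175, which describes brightness on the array and not amounts of transcript, and CD3D had the brightest of these probes in the naive flasks, whereas CD2 and both CD3E probes remained detected in all 4 flasks with changes of 1.02, -0.43 and -0.01. Of B cell genes, CD79B fell by 1.20 (adjusted p = 0.0466), CD79A gave 0.22 without a call, and MS4A1 and PAX5 were detected on no array. Of monocyte genes, CSF1R was at 1.47 and 1.69 against 2.70 and 2.90 and was not called (adjusted p = 0.0519), CD14 was detected throughout and FCGR3A on no array. Of the 5 stromal genes, 4 were above background on no array, and PDGFRB gave 0.80 (adjusted p = 0.257). Whether fewer cells make a transcript or each cell makes less of it cannot be told apart in such RNA.

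Of the 122 member probes, 56 were detected on all 4 arrays, 2 on both naive arrays alone (1.23% of all probes were), 5 on both resistant arrays alone (1.04% of all probes were), 15 on some other set of arrays and 44 on none. No probe of 30 genes was above background on any array, 17 of them ligands (among them IL3, IL4, IL5, IL7, IL9, IL21 and IL22) and 13 receptor chains (among them IL2RA, IL7R, IL1R1 and IL8RA). Not well above background is a statement about signal and does not show that a gene is silent.

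The 71 member probes detected on both arrays of at least 1 line, for 55 genes, were tested in the limma fit over all 28221 such probes. A probe was called at a Benjamini-Hochberg adjusted p under 0.05 and a change of at least 2-fold. Of these, 13 probes were called, 18.3% of the members tested against 5.27% of all probes tested. In the resistant line 10 were higher, against 2.30% of all probes in this direction, and 3 were lower, against 2.97%. The calls comprised 4 of 25 ligand probes (3 higher, 1 lower), 8 of 42 receptor probes (6 higher, 2 lower) and 1 of the other 4 probes. A probe detected in 1 line alone entered the test because it was high there; among the 56 members detected on all 4 arrays, 8 were called (6 higher, 2 lower) against 3.35% of all such probes. The median change of the members tested was -0.14 against -0.020 for all probes tested, and on probes detected throughout -0.138 against -0.020.

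**Figure D1:**
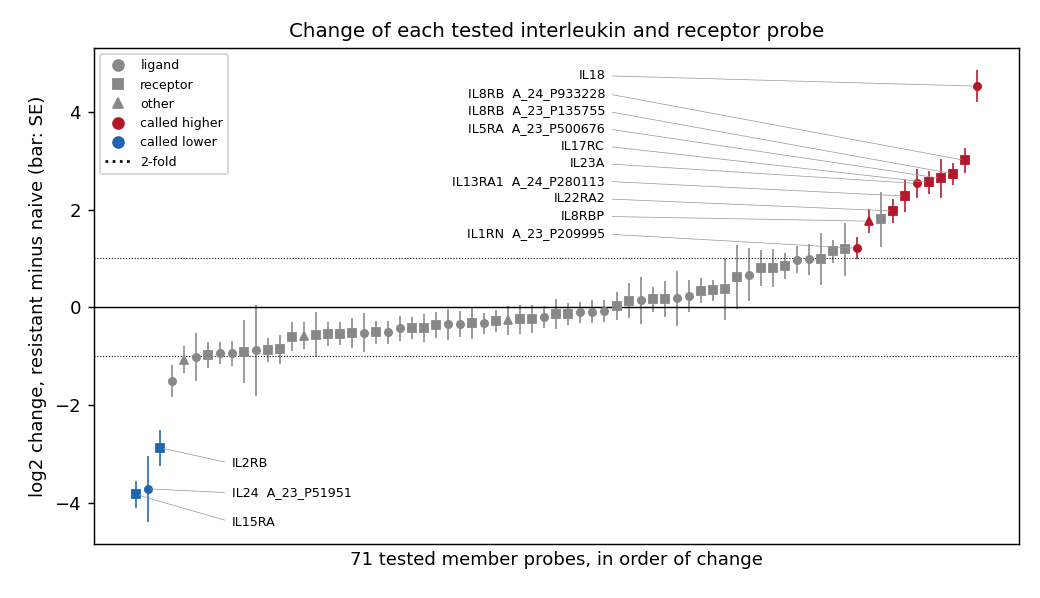
Fitted log2 change (resistant minus naive, bar SE) of the 71 tested member probes in ascending order, with shapes for ligands, receptors and others, and coloured where called. The 10 probes called higher run from IL1RN at 1.21 to IL18 at 4.53 and the 3 called lower are IL15RA, IL24 and IL2RB; where a line was below background (IL18, IL24, IL5RA, IL22RA2 and the IL8RB probe A_24_P933228) the fitted value is not a bound.

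Among the ligands IL18, an IL-1 family cytokine that is stored as a precursor and cleaved by caspase-1, was called higher in the resistant line. The array carries 10 spots of its probe, at chr11:112020811-112020870 (hg19, minus strand), whose sequence, read 5′ to 3′, has a single reading frame without a stop codon and is shown because every value of IL18 rests on it.
IL18 probe A_23_P104798: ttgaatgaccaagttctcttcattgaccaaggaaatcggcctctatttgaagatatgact
The naive flasks gave -7.47 and -8.24 and the resistant flasks -3.32 and -3.34. All 10 spots were above background on each resistant array, against 1 of 10 and 0 of 7 usable spots on the naive arrays, so that the lines did not overlap and the naive level is a bound. IL18 was at least 7.63-fold higher in resistant NB4 (limma, adjusted p = 0.00245), a bound that holds for the processed signal and not for the normexp values. Its receptor chains did not pass the test: IL18RAP stood at -3.14 and -1.57 in naive and -1.45 and -1.27 in resistant flasks (0.99, adjusted p = 0.383), and IL18R1 probe A_24_P208567 changed by -0.91 (adjusted p = 0.50) with naive flask 2, at -2.75, above the other 3 flasks; its second probe was above background on 1 naive array and was not tested. The 2 probes of IL18BP, the soluble protein that binds IL-18, changed by -0.27 and -0.58 (adjusted p = 0.663 and 0.343). CASP1, which encodes caspase-1, gave 1.37 and 0.36 in naive and 1.92 and 1.90 in resistant flasks (1.05 ± 0.38 SE, adjusted p = 0.226).

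IL23A encodes p19, the subunit that makes IL-23 when joined to the p40 of IL12B. It was at -1.86 and -1.22 in naive flasks and 1.01 and 0.98 in resistant flasks. Both resistant flasks were above both naive flasks, by 5.80-fold on average (2.54 ± 0.29 SE, adjusted p = 0.0104). IL12B and IL12A, named here for their role after their values were seen, were above background on no array. IL23R was at -5.79 and -5.29 against -4.62 and -4.77 (0.84, adjusted p = 0.181), and both probes of IL12RB1, the chain shared by the IL-12 and IL-23 receptors, gave -0.42 and -0.37 without passing the test. IL27, the p28 subunit of IL-27, changed by 0.23 (adjusted p = 0.759) with 1 array saturated, while EBI3, its partner, gave -0.66 and -0.67 (adjusted p = 0.32 and 0.324).

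IL1RN, the antagonist that occupies the IL-1 receptor without signalling, was the third ligand called higher. Its probe A_23_P209995 gave -3.05 and -3.22 in naive and -1.87 and -1.99 in resistant flasks, 2.31-fold higher with no overlap (1.21 ± 0.22 SE, adjusted p = 0.0479). The call was lost in 10 of 19 alternatives, among them the replicate number as a block, quantile normalization and normexp (1.64-fold, or 1.68-fold after the reset). The second IL1RN probe, from another transcript record, gave -0.52 ± 0.40 (SE, adjusted p = 0.538) with overlapping lines, so the call holds for 1 of 2 probes. IL1B, the agonist, was at -3.38 and -1.76 in naive and -2.00 and -1.80 in resistant flasks (0.67, adjusted p = 0.56): naive flask 1 was low and naive flask 2 lay with the resistant flasks. Over the 9 or 10 spots on each array the SD was 0.050 to 0.091. IL33, IL1F7 and IL1F10 of the same family changed by -0.09, -0.19 and -0.35, none called.

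IL24, of the IL-10 family, was the 1 ligand called lower. Its probe A_23_P51951 was at -6.02 and -3.96 in naive flasks and at -8.59 and -8.82, not well above background, in resistant flasks. The lines did not overlap but the naive flasks differed from each other by 2.06. IL24 was at least 2.80-fold lower (adjusted p = 0.0449), but 1.13-fold lower and uncalled with normexp. The bound was 5.71-fold without naive flask 1 and 1.37-fold without naive flask 2, and its other probe was above background on no array. IL10 itself, chosen after its values were seen, was at -5.96 and -5.50 against -6.73 and -6.63 (-0.94, adjusted p = 0.133), with 9 of 10 spots above background on each naive array and 1 of 9 and 5 of 10 on the resistant ones.

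Of the ligands detected in all 4 flasks but not called, IL32 had the lowest change (-4.20 and -3.41 against -5.31 and -5.31; -1.51 ± 0.33 SE, adjusted p = 0.0744) and IL17D followed (-0.28 and -0.06 against -1.09 and -1.13; -0.94 ± 0.23 SE, adjusted p = 0.0966). Neither pair of lines overlapped. IL8, the neutrophil chemoattractant, changed by -0.35, IL6 by -0.51, the 2 detected IL16 probes by -0.08 and 0.14, IL17A by -0.33, IL17B by 0.97, IL34 by 0.18, IL28A by -0.10 and IL1F9 by -0.88, with adjusted p from 0.141 to 0.905. IL15 was detected in both resistant flasks alone (-7.71 and -6.95 against -6.31 and -6.38), too close to background for a fold (adjusted p = 0.187).

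**Figure D2:**
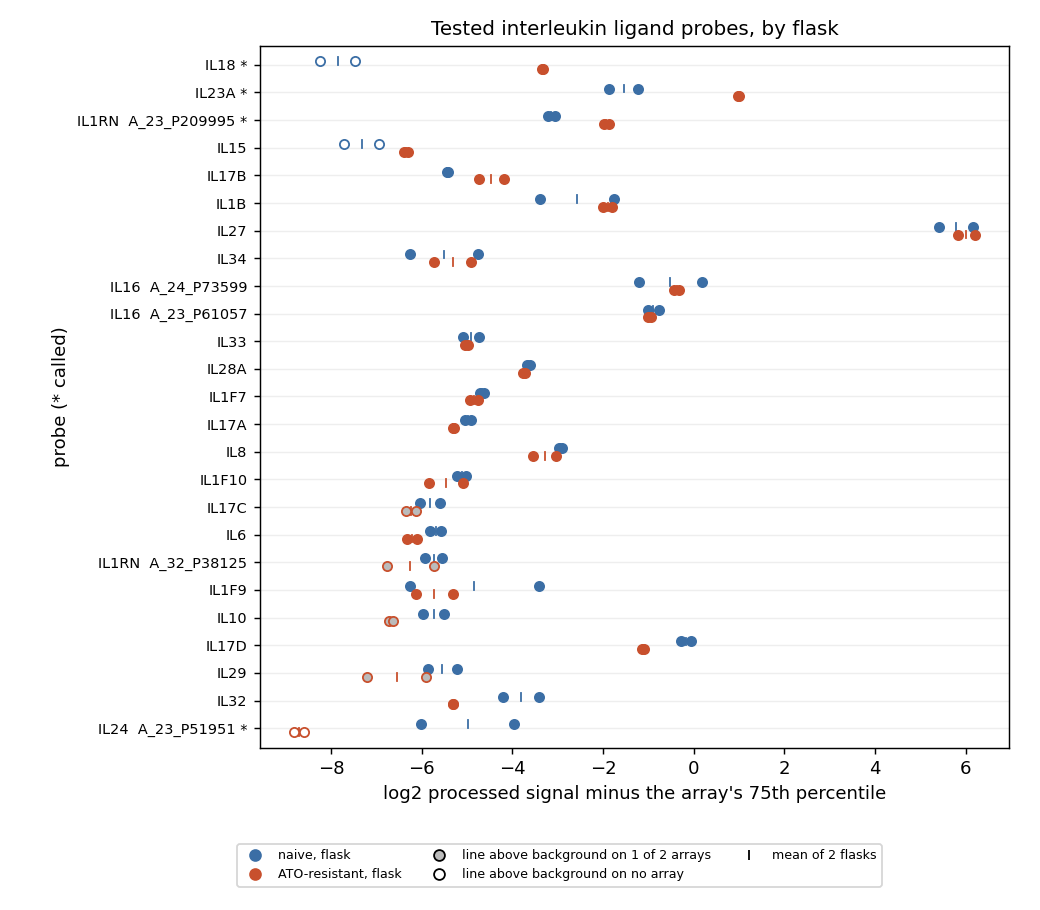
Level (log2 processed signal minus the array's 75th percentile) in each flask for the 25 tested ligand probes, ordered by change; open points mark a line below background on both arrays, grey points on 1, and ticks the mean of 2 flasks. IL18, IL23A and IL1RN probe A_23_P209995 lie to the right in both resistant flasks and IL24 to the left, whereas IL1B, IL27 and IL34 interleave; levels are comparable along a row, not between rows.

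Among the receptors the 2 chains that fell belong to the IL-15 receptor. IL15RA, the alpha chain that binds IL-15 and presents it to neighbouring cells, was at -1.79 and -1.25 in naive flasks and -5.28 and -5.42 in resistant flasks. It was detected in every flask, the lines were far apart, and the fall was 14.2-fold (-3.83 ± 0.28 SE, adjusted p = 0.00253), or 2.76-fold (-1.47, adjusted p = 1) with normexp. IL2RB, the beta chain shared by the IL-2 and IL-15 receptors, was at -3.16 and -2.65 against -5.36 and -6.20. The fall was 7.33-fold without overlap (-2.87 ± 0.37 SE, limma, adjusted p = 0.0152), or 1.58-fold (-0.66, adjusted p = 1) with normexp. In resistant flask 2 the IL2RB value was near -6.63, the lowest signal above background on that array, so the fold rests in part on dim signal. IL2RG, the common gamma chain that completes both receptors, was at -0.54 and 0.00 against -0.53 and -0.84 (-0.42 ± 0.29 SE, adjusted p = 0.489), and its lines overlapped. The T cell genes CD3D and CD3G, given above, fell along with these chains while CD2 and CD3E did not pass the test, and the part of that change in the result was not tested.

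Other receptor chains that pair with IL2RG did not pass the test. IL4R changed by 0.03 (adjusted p = 0.972), IL9R, whose probe the files place on chromosome 16, by -0.28 (adjusted p = 0.555) and IL21R, chosen after its values were seen, by 0.34 (adjusted p = 0.531). IL13RA1, which joins IL4R to make the receptor for IL-13, had a positive difference on 3 of 3 probes, of which 1 was called. Probe A_24_P280113 gave 0.96 and 0.15 in naive and 2.82 and 2.85 in resistant flasks, 4.85-fold higher (2.28 ± 0.33 SE, adjusted p = 0.0227). Probes A_23_P137196 and A_24_P288685 gave 1.81 ± 0.56 (adjusted p = 0.174) and 1.18 ± 0.55 (adjusted p = 0.326), with no overlap of the lines but naive flasks 1.68 and 1.60 apart.

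CXCR2, still called IL8RB on this array, is the neutrophil receptor for IL-8 and related chemokines, and it rose on both of its probes. They lie at chr2:219000724-219000783 (A_23_P135755) and chr2:218999510-218999569 (A_24_P933228) on the plus strand of hg19, share no run of more than 6 bases, and so measure separate stretches of the transcript. The upstream probe is shown with the stretch from its first ATG in capitals, which reads to the end without a stop codon, beside the probe of the pseudogene IL8RBP, a copy on the minus strand of the same chromosome.
IL8RB probe A_24_P933228: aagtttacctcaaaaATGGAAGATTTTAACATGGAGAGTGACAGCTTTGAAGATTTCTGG
IL8RBP probe A_32_P38989: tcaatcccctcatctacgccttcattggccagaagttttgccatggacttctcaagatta
Probe A_23_P135755 was at -4.65 and -4.79 in naive and -1.91 and -2.06 in resistant flasks, 6.66-fold higher (2.73 ± 0.22 SE, adjusted p = 0.00364). Probe A_24_P933228 was below background in both naive flasks (-8.63 and -8.39) and detected in both resistant flasks (-5.32 and -5.69), at least 1.69-fold higher (adjusted p = 0.00394). In neither probe did the lines overlap. With normexp the probes gave 2.54-fold and 1.48-fold, neither called (adjusted p = 1 for both). After the reset of bright local backgrounds A_23_P135755 gave 3.09-fold and was called, and A_24_P933228 gave 1.45-fold and was not. IL8RBP was at -4.83 and -4.73 against -2.85 and -3.19, 3.40-fold higher (1.76 ± 0.24 SE, limma, adjusted p = 0.0182). With normexp IL8RBP was 1.61-fold higher and uncalled. Because pseudogene and gene are close copies, which of them its probe reads is uncertain. The probe shares at most 6 bases in a row with either IL8RB probe, but that compares probes and not transcripts, so it cannot decide this. IL8RA (CXCR1), the other IL-8 receptor, was above background on no array.

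IL17RC, which joins IL17RA to form the receptor for IL-17A and IL-17F, was at -4.46 and -4.18 in naive and -1.80 and -1.72 in resistant flasks. The lines were well apart, the resistant level being 5.88-fold higher (2.56 ± 0.23 SE, adjusted p = 0.0049), or 2.77-fold (1.47, adjusted p = 1) with normexp. The 2 IL17RA probes changed by -0.51 and -0.53 (adjusted p = 0.318 and 0.419). IL17RE was at -0.47 and -0.71 against 0.49 and 0.62 (1.14 ± 0.23 SE, adjusted p = 0.0617), apart but just short of the threshold.

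In addition, 2 chains were called higher from near background. IL22RA2, a soluble decoy that binds IL-22, was at -7.10 and -7.29 in naive and -5.41 and -5.03 in resistant flasks, at least 2.05-fold higher (adjusted p = 0.0146). IL5RA probe A_23_P500676, for the alpha chain of the eosinophil growth factor receptor, was at -8.55 and -7.48 against -5.26 and -5.48, at least 1.85-fold higher (adjusted p = 0.0259). With normexp they gave 1.51-fold and 1.39-fold, neither called. In both genes the resistant flasks alone were above background, and the second IL5RA probe was above background on no array. CSF2RB, the beta chain with which IL5RA signals, was at -4.10 and -4.43 against -3.24 and -3.70 (0.80, adjusted p = 0.214).

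The remaining receptors gave no call. The 4 probes of IL1RAP, the accessory chain of the IL-1 receptor, changed by -0.54, -0.56, -0.86 and -0.54, 3 of them without overlap, with adjusted p from 0.196 to 0.559. With normexp they gave -0.58, 0.09, -0.087 and 0.18 in the same order. IL1RAPL2 was detected in naive flasks alone and was not called (adjusted p = 0.142), and its direction turned with normexp (0.25). IL1RL2 changed by -0.60, and by 0.19 with normexp. IL6R changed by 0.81 (limma, adjusted p = 0.348), its 2 naive flasks lying at 2.20 and 1.13. IL6ST, the shared gp130 chain, changed by 0.16 and -0.33 on its tested probes, placed on chromosome 5. The probe A_23_P502470, also labelled IL6ST but placed on chromosome 17, was above background on no array. IL10RA gave 0.18, -0.23 and -0.14, IL10RB 0.35, IL20RB -0.14, IL27RA -0.25 and 0.14, and IL11RA 0.38 and 0.62, the last with naive flasks 1.96 and 2.02 apart. IL4I1, a secreted amino acid oxidase and no interleukin, changed by -1.07 (adjusted p = 0.12), and by 0.022 with normexp.

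**Figure D3:**
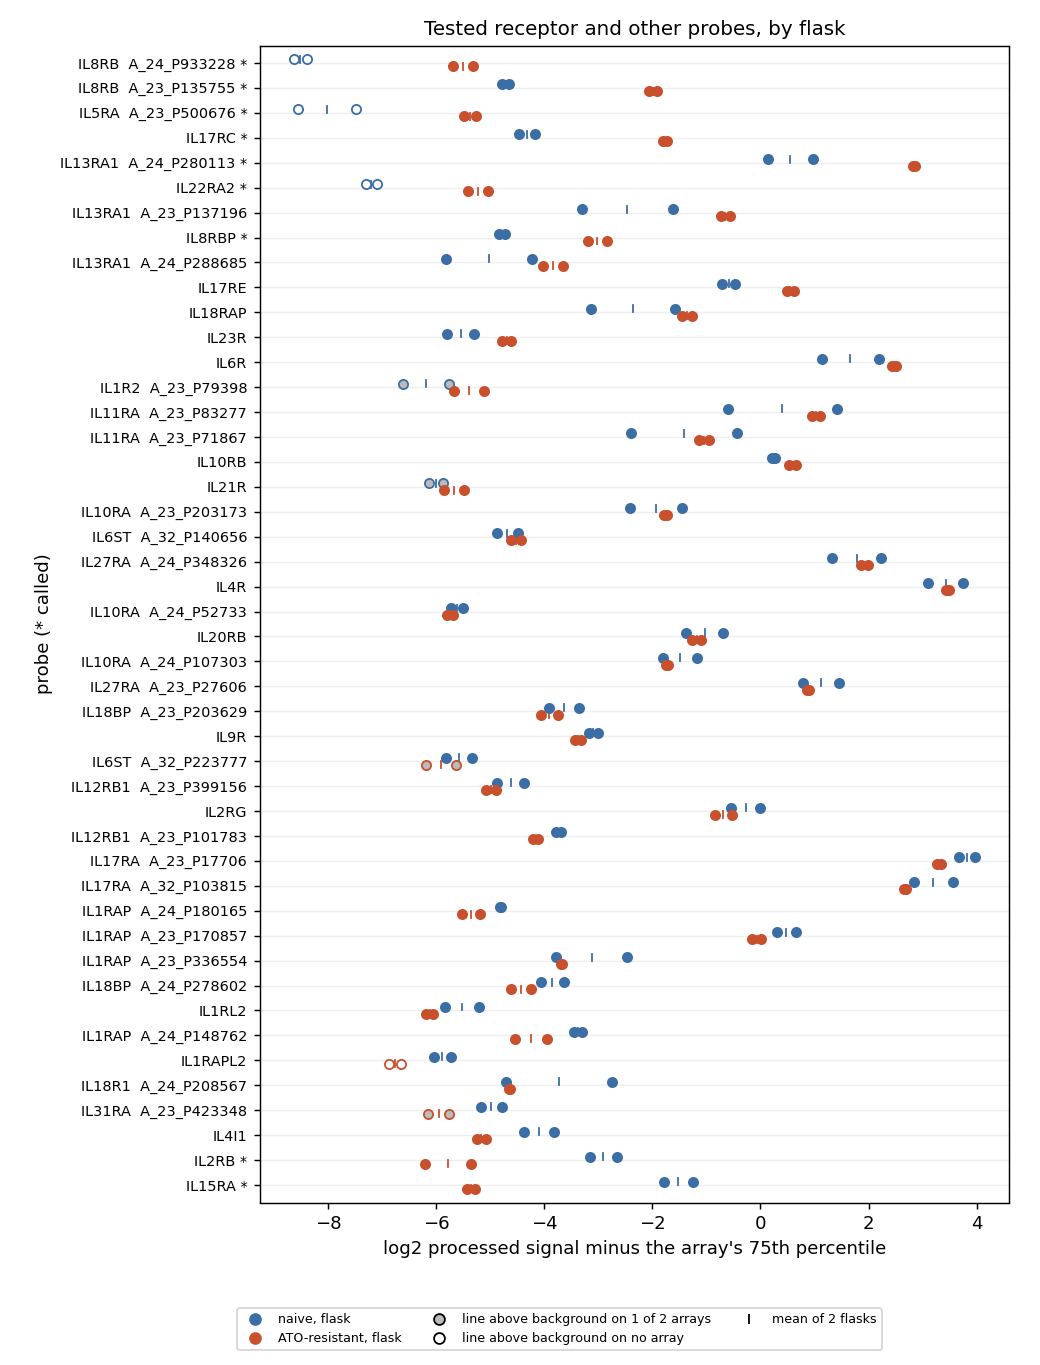
Level in each flask, on the scale used for the ligands, for the 46 tested probes of receptor chains and of IL18BP, IL4I1 and IL8RBP, ordered by change, with open points for a line below background on both arrays and grey points on 1. The IL8RB, IL5RA, IL17RC, IL22RA2 and IL13RA1 rows at the top and the IL2RB and IL15RA rows at the bottom show the lines apart.

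More than 1 probe was tested for 12 genes, and the changes of a gene's probes had 1 sign in 7 of them. Calls differed among the probes of 2, IL13RA1 and IL1RN. In IL8RB both probes were called, and in the other 9 genes none was.

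**Figure D4:**
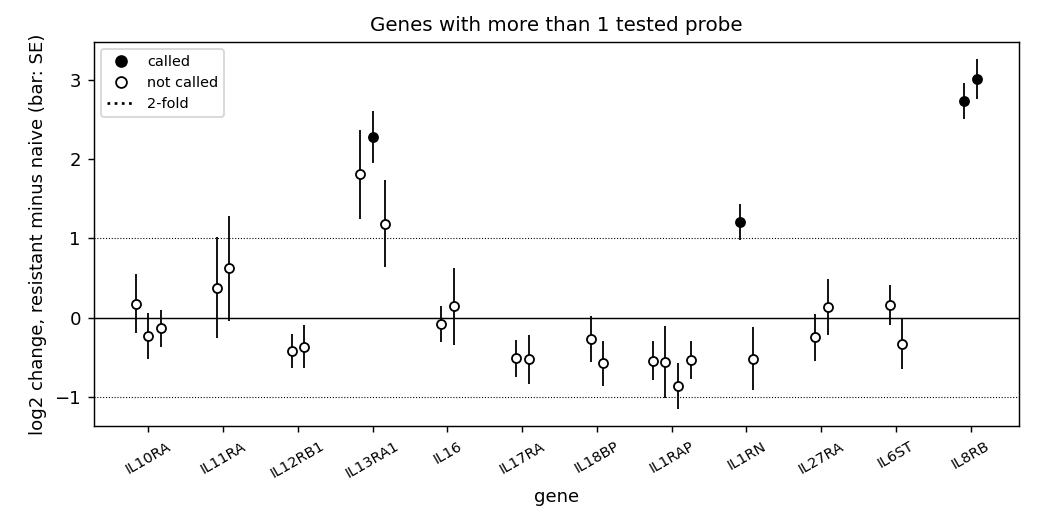
Log2 change with its SE for each tested probe of the 12 genes with more than 1, filled where called. Both IL8RB probes and all 3 IL13RA1 probes lie above 1, while the 2 IL1RN probes lie on opposite sides of 0.

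The flasks of the naive line were less alike than those of the resistant line. Across tested members the SD of the difference was 0.820 between naive flasks and 0.358 between resistant flasks, against 1.292 to 1.579 between lines, and across all probes tested it was 0.713, 0.371 and 1.011 to 1.071. Naive flasks differed at least 2-fold on 14 of 71 member probes and resistant flasks on 2. Naive flask 2 was the higher on 51 of 71, with a median difference of 0.348 against 0.054 over all probes. The lines did not overlap on 47 of 71 member probes, a larger share than among all probes (14805 of 28054, 52.8%). The difference between these shares was not tested. Lack of overlap was so common over the array that alone it sets no member apart. With 2 flasks against 2 an exact two-sided permutation p cannot be under 0.333. Without naive flask 1 or naive flask 2 the fit called 24 member probes, 33.8% against 13.2% and 16.1% of all probes, and without resistant flask 1 or 2 it called 6 or 5, 8.45% and 7.04% against 2.63% and 2.59%, the lone flask being taken to vary like the others. IL18, IL15RA, IL17RC and both IL8RB probes stayed called in all 4 such fits. IL2RB lost the call without resistant flask 2, and the called probes of IL23A, IL1RN, IL24, IL13RA1, IL22RA2, IL5RA and IL8RBP lost it without either resistant flask. No member was called when the background was re-estimated with normexp, nor with the t-test of the methods once its p-values were adjusted, and neither way called any probe of the array (6 and 18 member probes had an unadjusted p under 0.05).

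**Figure D5:**
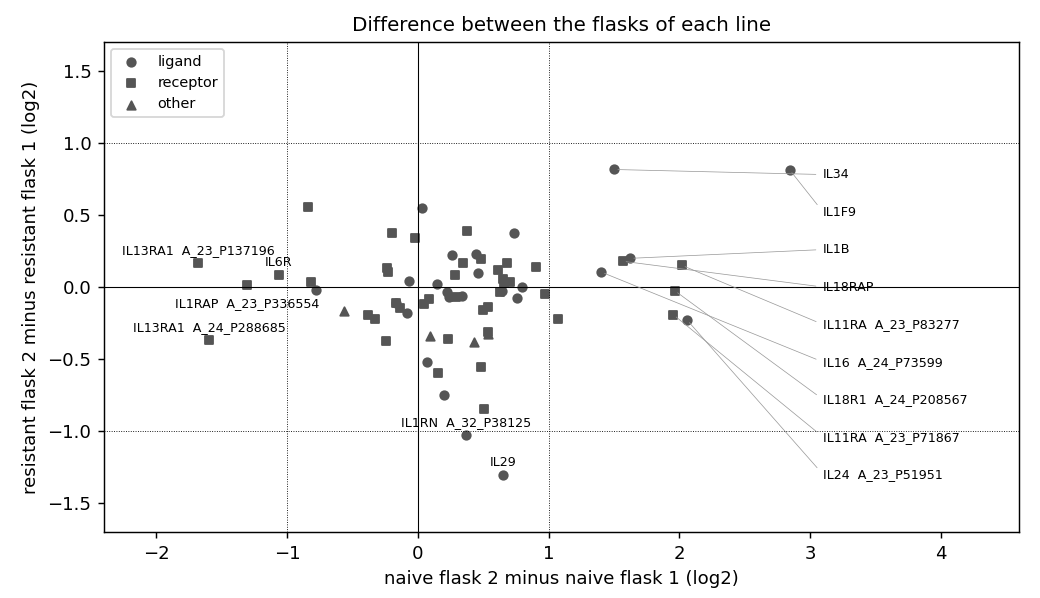
Log2 difference between the 2 flasks of the naive line (horizontal) and of the resistant line (vertical) for the 71 tested member probes, with dotted lines at 2-fold. The points spread more along the naive axis, where IL1F9, IL24, IL11RA, IL18R1, IL1B and IL34 lie to the right and IL13RA1 to the left.

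The pathway behind the receptors was followed with a list of 39 genes for kinases, STAT factors, inhibitors, adaptors and partner chains. Of 60 tested probes 2 were called, 3.33% against 5.27% of all probes tested, and the median change was 0.16. The order of these shares turned with the unadjusted t-test (10.2% against 6.53%) and with an intensity trend (8.33% against 5.53%). It also turned after the normexp reset (6.67% against 4.21%) and at 2-fold with no test (13.3% against 12.3%). JAK3, the kinase bound by the common gamma chain, was called higher on A_24_P59667 alone, detected in the resistant flasks and at least 1.67-fold higher (adjusted p = 0.0129), while its 2 probes detected throughout gave 0.03 and -0.20. None of the 27 inhibitor probes, among them those of the SOCS and PIAS genes, was called, nor any of the 9 adaptor and kinase probes or the 4 tested probes of partner chains. The limma fit called 10 and 8 probes of the list without naive flask 1 or 2, 16.9% and 13.3% against 13.2% and 16.1% of all probes, and 0 without resistant flask 1 or 2 (4 and 5 at an unadjusted p under 0.05).

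Sequence before the start of transcription was in the RefSeq table (GRCh38.p14) for 73 of the 91 genes and 9 of the 12 called genes. The 250 bases before the start were searched on both strands for the letters TGANTCA (AP-1), TTCNNNGAA (STAT factors) and GAGGAA (PU.1), of which the STAT letters can include those of PU.1 (in none of the sequences shown). Over 35116 promoter entries 6.57%, 6.57% and 23.6% held these letters, and over the 113 member entries 19, 7 and 33 did. The entries of 2 called genes that rose and 1 that fell are shown to set the letters in their place, with matches in capitals.
CXCR2, chr2:218125778-218126027, plus strand: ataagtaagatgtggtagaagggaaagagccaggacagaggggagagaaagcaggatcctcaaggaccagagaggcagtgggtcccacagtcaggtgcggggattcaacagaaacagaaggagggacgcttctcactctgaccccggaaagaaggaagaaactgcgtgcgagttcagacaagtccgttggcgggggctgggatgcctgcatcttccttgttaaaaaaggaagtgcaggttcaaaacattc
IL23A, chr12:56338634-56338883, plus strand: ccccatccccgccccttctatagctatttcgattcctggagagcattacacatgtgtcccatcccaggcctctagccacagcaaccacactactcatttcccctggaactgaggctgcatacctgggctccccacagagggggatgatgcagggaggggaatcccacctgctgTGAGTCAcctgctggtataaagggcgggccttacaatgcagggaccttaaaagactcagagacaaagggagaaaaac
IL15RA, chr10:5978047-5978296, minus strand: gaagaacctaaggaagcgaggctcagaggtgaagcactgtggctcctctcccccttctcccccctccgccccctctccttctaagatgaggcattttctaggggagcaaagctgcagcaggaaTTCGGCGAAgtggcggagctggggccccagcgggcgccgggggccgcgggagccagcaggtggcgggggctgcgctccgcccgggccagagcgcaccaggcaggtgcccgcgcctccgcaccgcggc
CXCR2 held none of the letters, IL23A held the AP-1 letters 77 to 71 bases before its start, and the first of the 4 IL15RA starts in the table held the STAT letters 127 to 119 bases before. The other 3 IL15RA entries held the AP-1 letters, 2 of them as 1 shared stretch. A match is a run of letters and not a bound site.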

How the data were processed

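Total RNA of 4 cultures was measured on one-colour 4x44k whole genome arrays (45015 spots, of which 43376 were not controls). The authors scanned the arrays with Agilent Feature Extraction 10.5.1.1 and deposited its spot intensity values (processed signal, background-subtracted and detrended within an array, with a surrogate for low signals; coordinates in hg19 per the file headers) and a table of log2 values; the methods name a 75th percentile shift and a t-test. From the processed intensity, spots marked as outliers were left out, log2 values of a probe's spots averaged, and the 75th percentile of the array subtracted. The deposited log2 columns correlated with these values at r = 0.9998 to 0.99994, had medians of -3.636, -3.493, -3.593 and -3.634, and served as an alternative.

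Probes above background on at least as many of their spots as not, on both arrays of at least 1 line, were fitted with limma 3.58.1 (R 4.3.3; lmFit, eBayes), all 4 arrays without covariates, with p-values adjusted by Benjamini-Hochberg over all 28221 probes tested. The fit was tested on simulated data, the outcome of which is not reported here. A fold for a probe below background in 1 line is a bound, the bright line's mean against the lowest signal above background (or the probe's own, if higher) on the arrays of the other line. The number of arrays limits the precision, and the p-values measure the spread between 2 flasks a line. Current symbols were found through accessions for 115 of 122 member probes.

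Named were every called member probe, every member gene with a probe above background on all 4 arrays and every member probe above background in 1 line alone; of a named gene all probes were considered. Members and lists (signalling genes, and promyelocyte, T cell, B cell, monocyte and stromal cell markers) were chosen with earlier results of these data known. Alternatives changed the background, scaling, filters, test, threshold and flasks. Some results for the B cell and monocyte markers and the signalling list are not reported here.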

Additional observations from a re-analysis of the deposited data

How the results depend on the processing

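Of the 13 called member probes none changed sign under any alternative: over 242 values the call was kept in 185 and lost in 57. The count of 13 became 0 with normexp background correction (6 probes at an unadjusted p under 0.05; 0 of all probes and 0 of the signalling list, with 929 and 3 at that p), 8 with normexp after resetting the bright local backgrounds of 4 spots on a naive and 26 on a resistant array (4 of the signalling list; chosen after seeing the data), 11 with quantile and 14 with scale normalization, 13 with a median shift, with the deposited table, without saturated probes, with an intensity trend and with no minimum fold, 10 of 122 with no filter on dim probes, 7 of 56 when only probes above background on all 4 arrays were fitted (760 of all probes, against 1487), and 19 at 2-fold with no test (3463 of all probes). As shares of members against all probes the calls were 15.5% against 4.43% (quantile), 19.7% against 6.9% (scale) and 18.3% against 5.7% (median shift). With no filter they were 8.2% against 2.45%, and after the reset 11.3% against 4.21%. The methods' t-test gave 13 unadjusted (18 with no minimum fold) and 0 adjusted, and 0 adjusted for all probes and for the signalling list too (4138 and 12 at an unadjusted p under 0.05). The 13 were 18.3% of members against 6.53% of all probes. The 2 calls of the signalling list became 1 with no filter (1.41% against 2.45% of all probes). With the filter on all 4 arrays 1 was called (1.75% against 2.93%). The unadjusted t-test called 6 (10.2% against 6.53%), an intensity trend 5 (8.33% against 5.53%) and 2-fold with no test 8 (13.3% against 12.3%). After the reset the list's 4 calls were 6.67% against 4.21%. Scale normalization and a median shift each called 3 (5% against 6.9% and 5.7%). Leaving out 1 flask gave 5 to 24 member calls, 0 to 10 in the signalling list and 728 to 4536 of all probes. IL15RA, IL17RC, IL18 and IL8RB probe A_23_P135755 lost the call under normexp and the adjusted t-test only, whereas IL1RN lost it in 10 of 19 and IL24 in 8 of 18 alternatives. The median change over the whole array shifted by 0.149 with normexp and by 0.103 with scale normalization; after the reset the folds of the reported calls that were kept were 4.58 for IL13RA1 probe A_24_P280113, 4.50 for IL15RA, 2.26 for IL2RB, 3.37 for IL17RC, 3.09 for IL8RB probe A_23_P135755, 2.41 for IL18 and 4.96 for IL23A; beyond the reset, the cause of the lost calls was not tested.

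The labels number flasks 1 and 2 in both lines without saying that a number pairs them, and deviations of same-numbered flasks correlated at 0.119 over 2 pairs. With the replicate number as a block 12 member probes, 2 signalling probes and 1375 of all probes were called, the lost member being IL1RN. Slide as a block was not run, since there was 1 slide.

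Among 983 values of named member probes that were not called, 902 stayed uncalled with their sign, 28 passed the threshold and 53 changed sign. With normexp the log2 change became IL10RA probe A_24_P52733 0.25, IL12RB1 probe A_23_P101783 0.047, IL12RB1 probe A_23_P399156 0.19, IL16 probe A_23_P61057 0.002, IL17A 0.26, IL18BP probe A_23_P203629 0.13, IL18BP probe A_24_P278602 0.013, IL1F10 0.30, IL1F7 0.26, IL1RAP probe A_23_P336554 0.09, IL1RAP probe A_24_P180165 0.18, IL1RAPL2 0.25, IL1RL2 0.19, IL1RN probe A_32_P38125 0.20, IL28A 0.23, IL33 0.27, IL4I1 0.022, IL4R -0.064, IL6 0.26, IL6ST probe A_32_P223777 0.21 and IL9R 0.054; with the reset, IL17A 0.001, IL1F10 0.096, IL1F7 0.02, IL1RN probe A_32_P38125 0.002, IL28A 0.015, IL33 0.037, IL6 0.003 and IL6ST probe A_32_P223777 0.001. Quantile normalization gave IL33 0.011 and scale normalization gave IL16 probe A_23_P61057 0.013. Leaving out 1 flask in turn gave IL10RA probe A_23_P203173 -0.31 to 0.66, IL11RA probe A_23_P71867 -0.60 to 1.36, IL11RA probe A_23_P83277 -0.39 to 1.63, IL16 probe A_24_P73599 -0.56 to 0.84, IL1B -0.14 to 1.48, IL1RAP probe A_23_P336554 -1.21 to 0.094, IL27 -0.14 to 0.59, IL27RA probe A_24_P348326 -0.32 to 0.59, IL34 -0.57 to 0.93, IL4R -0.30 to 0.35, IL10RA probe A_24_P107303 -0.55 to 0.08, IL16 probe A_23_P61057 -0.20 to 0.037, IL18BP probe A_23_P203629 -0.54 to 0.001, IL18R1 probe A_24_P208567 -1.89 to 0.073, IL1F9 -2.31 to 0.54, IL20RB -0.48 to 0.20, IL27RA probe A_23_P27606 -0.58 to 0.083, IL33 -0.26 to 0.076, IL6ST probe A_32_P140656 -0.027 to 0.35 and IL1F10 -0.72 to 0.026. Signal close to background limits all of these values, and 2 flasks a line limit every call.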
